A study of Mus musculus with 6 samples.

Results

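The transcripts of the immunoglobulin heavy chain locus (Igh, chromosome 12) and of the kappa (Igk, chromosome 6) and lambda (Igl, chromosome 16) light chain loci were followed through an RNA immunoprecipitation of LIN28B from cultured mouse B cell progenitors. Members were the genes named as variable (V), diversity (D), joining (J) or constant segments of these loci whose level, averaged over the 3 input libraries, reached 1 FPKM (fragments per kilobase of transcript, scaled to the mapped fragments of the library). This left 174 of the 395 segments listed by name, out of 54752 genes in all, of which 12576 reached the same level. Members were thus selected on the mean input level, and input levels are given as a description.

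The cells of all groups came from whole bone marrow of adult mice, from which adherent cells had been removed, and were grown with doxycycline (Dox) and 20 ng/mL IL-7 over 5 days. The 2 tet-LIN28B mice carried a FLAG-tagged human LIN28B cDNA under a tetO element at Col1a together with the Rosa26 rtTA*m2 transactivator, so that the transgene responded to Dox in any cell of the culture that held both. The single control was a littermate with the Rosa26 rtTA*m2 transactivator and no FLAG-LIN28B, and it received Dox as well. Each mouse gave an input and an anti-FLAG IP, 6 libraries in all, so the control had no replicate and the IP of the control measured what anti-FLAG beads carried down without the tagged protein.

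An immunoglobulin chain is encoded by a V segment joined by recombination to a J segment, in the heavy chain with a D segment between them, and spliced to a constant region. Heavy chain genes rearrange first, in pro-B cells, and the mu heavy chain pairs with the surrogate light chain to form the pre-B cell receptor of large pre-B cells. Kappa and lambda genes rearrange afterwards, in small pre-B cells, and their germline and rearranged transcripts accumulate as cells approach the immature stage. LIN28B, an RNA-binding protein typical of fetal life, inhibits let-7 microRNA maturation and also binds mRNAs.

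Of the 3 lambda constant genes, Iglc2 and Iglc3 differ little in sequence, which matters for how reads are shared between them. For all 3 genes, 30 bases of the constant exon are shown first (GRCm38, minus strand, written in the sense of the transcript, GENCODE M21 models). Capitals mark the 8 positions that were not the same in all 3 genes.
Iglc1, chr16:19062040-19062069: cagcccaagtcTTcGccATcAGtcaccCtg
Iglc2, chr16:19198821-19198850: cagcccaagtcCAcTccCAcTCtcaccGtg
Iglc3, chr16:19065650-19065679: cagcccaagtcCAcTccCAcACtcaccAtg
Over their whole models, Iglc2 and Iglc3 were 95.4% identical (452 aligned bases) and shared 43 stretches of 50 bases, while Iglc1 was 69.2% and 70.8% identical to them and shared none. Reads of Iglc2 and Iglc3 can therefore be assigned to the wrong gene of the pair, and the difference between these genes is uncertain.

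V segments are transcribed from promoters of their own, which share an octamer bound by Oct proteins. In the window from 250 bases before to 49 bases after the annotated gene start (GRCm38 sequence, GENCODE M21 starts), the octamer ATGCAAAT or its reverse complement ATTTGCAT lay in 62 of 71 heavy chain, 68 of 92 kappa and 3 of 3 lambda V members. The same letters were found in 1.74% of the 32851 promoter windows of equal length in RefSeq's GRCm38.p6 annotation. On the coding strand, heavy chain members held ATGCAAAT (62 of 71) and none ATTTGCAT, whereas kappa members held ATTTGCAT (68 of 92) and 2 of 92 also ATGCAAAT. Its first base lay a median of 105 bases before the gene start in heavy chain and 92 bases in kappa members. Windows of 30 bases of the leading V segments of each locus are shown for this turn of orientation, with the octamer in capitals and each read on the coding strand.
Iglv1, chr16:19085547-19085576: aaatgaaagtaATTTGCATtactagcccag
Iglv3, chr16:19241758-19241787: tggccaataaaATTTGCATgaagggccctc
Igkv19-93, chr6:68736844-68736873: agatgaagctgATTTGCATgtgctgagatc
Igkv1-135, chr6:67609628-67609657: cagaccagaacATTTGCATattgttccctg
Ighv5-4, chr12:113598017-113598046: agcaggaagacATGCAAATaagtcttctct
Ighv8-6, chr12:115166280-115166309: ctgaggcaggaATGCAAATctctcctgtat
Among V segments not annotated as pseudogenes, the octamer was in 89.7% of 68 heavy chain members and in 66.7% of 45 heavy chain segments under the threshold, and in 73.6% of 87 kappa members and 69.2% of 13 kappa segments under it. A match is a description of letters and not of binding. Kappa members without it had a median mean input of 13.2 FPKM, and those with it 7.56 FPKM. In heavy chain members the order was the other way, with 2.05 FPKM without it and 2.79 FPKM with it.

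The members were 71 of 185 heavy chain V segments, 92 of 160 kappa V segments, all 3 lambda V segments and 8 of 13 constant genes. Of the V members, 8 are annotated as pseudogenes. All 20 D segments and all 14 J segments were listed at 0 in every library. The gene models of D segments are 10 to 29 nt long and those of J segments 37 to 54 nt, and the 46 other genes with models of up to 50 nt were also all listed at 0, so these values say nothing of D and J usage. To show how short they are, the whole of Ighd4-1 (chr12:113430528-113430538, minus strand) and of Ighd1-1 (chr12:113482170-113482192, minus strand) is given.
Ighd4-1: ctaactgggac
Ighd1-1: tttattactacggtagtagctac
At the threshold, Igkv3-3 (mean input 1.02 FPKM) and Ighv3-1 (1.08 FPKM) lay just inside, and Ighg2c (0.99 FPKM) and Ighv1-63 (0.983 FPKM) just outside. Of the 174 members, 133 were at 1 FPKM or more in every input, 17 had a tet-LIN28B mean under 1 FPKM and so passed through the control input, and 6 had a control input under 1 FPKM. FPKM do not show the depth, which is unknown here. The low values of short genes lay between 0.44 and 0.781 FPKM in the 6 libraries (10th percentile of values above 0 for models of 290 to 310 nt), so V segments near the threshold rest on little signal.

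Markers of B cell progenitors were present in every input, and genes of other cells were present as well. Summed over the marker list, T cell genes were at 99.1 FPKM in tet-LIN28B input 1 against 30.8 and 30.7 FPKM in tet-LIN28B input 2 and the control input, with Cd4 under 1 FPKM in every input. Myeloid genes summed to between 4645 and 7426 FPKM in the inputs in total. Of the plasma cell and class-switch genes, Prdm1 and Tnfrsf17 were under 1 FPKM in every input, while Xbp1 was at 90.7, 84.4 and 84.4 FPKM, Jchain at 25.2, 7.15 and 3.20 FPKM and Sdc1 at 3.11, 2.51 and 5.24 FPKM in the inputs of tet-LIN28B mice 1 and 2 and the control. Of the stromal genes, Col1a1, Col1a2 and Cxcl12 were under 1 FPKM in every input, and Pecam1, which endothelial cells also express, was at 10.8, 9.91 and 12 FPKM. The part of these other cells in the results was not tested.

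Constant-region transcripts were among the most abundant members in the inputs and were low in the IP of tet-LIN28B mice. Igkc, the kappa constant gene (chromosome 6, 70726435 to 70726966), was at 3250, 3831 and 5305 FPKM in the inputs of tet-LIN28B mice 1 and 2 and of the control, and at 152, 290 and 2883 FPKM in their IPs. Ighm, the mu heavy chain (chromosome 12, 113418558 to 113422730), was at 1392, 1651 and 1984 FPKM in the inputs and at 157, 265 and 2236 FPKM in the IPs. In both genes the IP values of the tet-LIN28B mice lay far below those of the control, and the inputs lay much closer together. The IP/input ratio of Ighm was 0.137 ± 0.0335 in the transgenic pair (SD, n = 2) against 1.13 in the control, and that of Igkc was 0.0612 ± 0.0204 (SD, n = 2) against 0.544. In the fit of log2((IP + 1)/(input + 1)) with limma, both genes were lower in the tet-LIN28B IP relative to its input (log2 ratio -2.89 ± 0.20 (SE), adjusted p = 0.00266 for Ighm, and -4.07 ± 0.23, adjusted p = 0.00242 for Igkc).

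Iglc1 and Iglc3, which encode lambda constant regions, were also high in the inputs and low in the tet-LIN28B IPs. Iglc1 was at 1146, 1471 and 1938 FPKM in the inputs and at 52.1, 125 and 1082 FPKM in the IPs of tet-LIN28B mice 1 and 2 and the control. Iglc3 was at 1841, 2214 and 3365 FPKM in the inputs and at 188.3, 200.1 and 1786 FPKM in the IPs. Iglc2 stood apart from them, with 589, 771 and 1139 FPKM in the inputs and 308, 639 and 675 FPKM in the IPs. Its IP/input ratio was 0.523 and 0.828 with LIN28B and 0.593 without, so the tet-LIN28B values lay on both sides of the control. Iglc2 was the constant gene among the members that did not pass the test in tet-LIN28B mice (log2 ratio -0.60 ± 0.22 (SE), limma adjusted p = 0.0829). It has a second model, of 606 nt, beside one of 458 nt. Summed with its near copy Iglc3, the IP/input ratio was 0.204 and 0.281 against 0.546 in the control.

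The remaining constant genes were less abundant and also low in the tet-LIN28B IPs. Ighd, the delta heavy chain of mature naive B cells, was at 70.1, 72.4 and 83.5 FPKM in the inputs and at 21.8, 28.2 and 85.4 FPKM in the IPs. Ighg2b, a gamma chain, was at 47.2, 64.0 and 49.2 FPKM in the inputs and at 10.3, 15.8 and 37.6 FPKM in the IPs. Igha, the alpha chain, was at 30.4, 4.43 and 4.91 FPKM in the inputs and at 2.68, 1.72 and 3.83 FPKM in the IPs. The first input alone was high for Igha, as it was for Jchain, the joining chain of secreted IgA and IgM (25.2 FPKM against 7.15 and 3.20 FPKM), and for T cell genes. Ighe, Ighg1, Ighg2c, Ighg3 and Iglc4 had mean inputs under 1 FPKM and were not members.

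**Figure D1:**
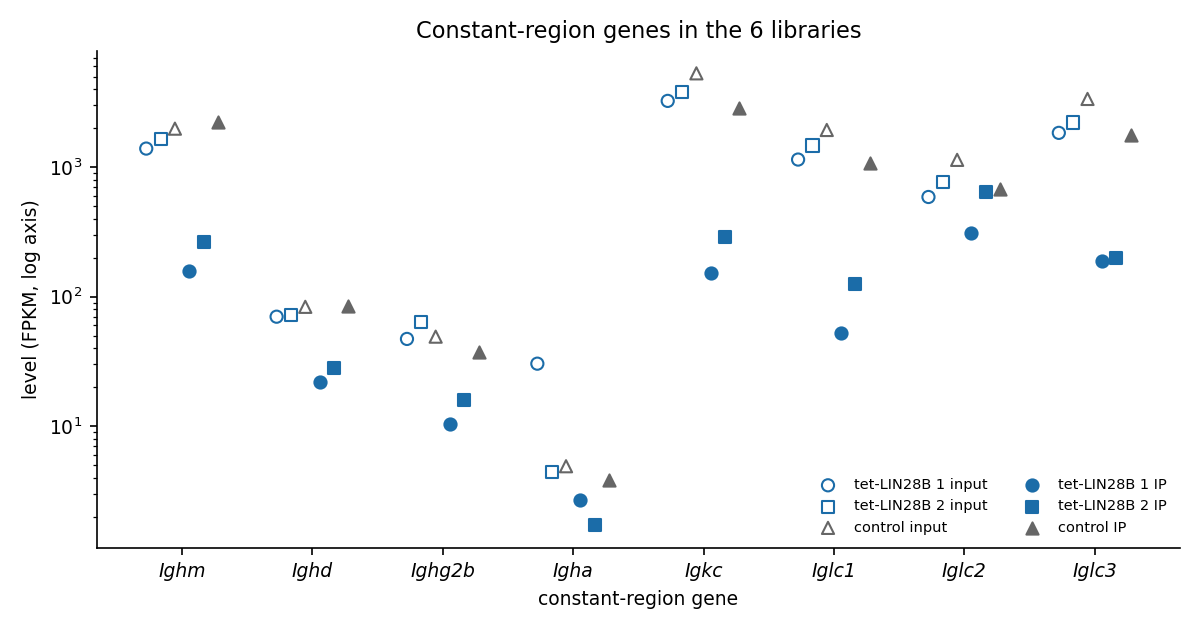
Level of the 8 constant-region members (FPKM, log axis) in each library, with open symbols for inputs and filled symbols for IPs, circles and squares for the tet-LIN28B mice and triangles for the control. Ighm reached 157 and 265 FPKM in the tet-LIN28B IPs and 2236 FPKM in the control IP, while Iglc2 was at 308 and 639 FPKM against 675 FPKM.

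Summed over genes, lambda V segments had the lowest IP/input ratio of the classes in both tet-LIN28B mice (0.0167 and 0.0601), and in mouse 2 this rested on Iglv1, since the other lambda V genes summed to ratios of 0.0314 and 0.141. Iglv1 (chromosome 16, 19085017 to 19085500), the most abundant V member, was at 476, 656 and 1188 FPKM in the inputs and at 5.93, 23.4 and 765 FPKM in the IPs of tet-LIN28B mice 1 and 2 and the control. Iglv2 was at 105, 144 and 221 FPKM in the inputs and at 2.13, 20.6 and 191 FPKM in the IPs, and Iglv3 at 33.9, 53.1 and 100.1 FPKM and at 2.24, 7.23 and 54.6 FPKM. In each of the 3 genes both tet-LIN28B IPs lay below the control IP, and mouse 1 lay below mouse 2. All 3 passed the test against the input in tet-LIN28B mice, with limma log2 ratios of -5.43 ± 0.35 (SE, adjusted p = 0.00265) for Iglv1, -3.92 ± 0.57 (adjusted p = 0.0087) for Iglv2 and -3.07 ± 0.23 (adjusted p = 0.00291) for Iglv3.

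Kappa V segments were spread over many genes and many of them were listed at 0 in the tet-LIN28B IPs. Igkv19-93, the highest in the inputs, was at 35.3, 50.8 and 106 FPKM there and at 1.38, 5.78 and 70.1 FPKM in the IPs. Igkv1-135 was at 25.7, 32.8 and 47.0 FPKM in the inputs and at 0.70, 0.79 and 49.4 FPKM in the IPs. Igkv17-121 was at 11.6, 25.9 and 42.6 FPKM in the inputs, was listed at 0 in both tet-LIN28B IPs and was at 43.8 FPKM in the control IP. In each of these 3 genes both tet-LIN28B IPs lay far below the control IP, and Igkv1-135 and Igkv17-121 were under 1 FPKM there. Igkv17-127 and Igkv3-7 followed them, at 0.84 and 0.93 FPKM and at 0 and 0.62 FPKM in the tet-LIN28B IPs against 51.9 and 27.6 FPKM in the control IP. The kappa V segment with the second highest mean input was less low, with tet-LIN28B ratios of 0.316 and 0.168 against 0.584 in the control.

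Of the 174 members, 97 were listed at 0 in the IP of tet-LIN28B mouse 1, 51 in that of mouse 2 and 7 in the control IP, against 3 to 5 in the inputs. Both tet-LIN28B IPs were at 0 for 45 members (25.9%), against 2.49% of all genes tested, and 42 of these 45 were above 0 in the control IP. Of the 45, 35 were kappa V segments. In the control IP 4.02% of members and 2.35% of all genes tested were at 0. Zeros were not restricted to the rarest members, since 12 of the 37 members at 10 FPKM or more in input 1 and 9 of the 51 in input 2 were at 0 in the IP of the same mouse, against 0 of 63 in the control. Shares of all genes at 0 in a single tet-LIN28B IP, or among genes at 10 FPKM or more, are not given here.

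Heavy chain V segments were lower in level and more variable. Ighv5-4 was at 27.6, 23.2 and 30.1 FPKM in the inputs and at 18.7, 25.7 and 48.4 FPKM in the IPs, so its tet-LIN28B IPs stayed close to the inputs. Ighv3-6 was at 7.12, 18.5 and 15.9 FPKM in the inputs and at 0, 4.89 and 20.8 FPKM in the IPs. Ighv5-2 was at 9.70, 5.56 and 11.7 FPKM and at 0, 0.98 and 13.9 FPKM, and Ighv14-2 at 11.3, 12 and 5.33 FPKM and at 2.11, 10.2 and 10.5 FPKM. In Ighv3-6 and Ighv5-2 both tet-LIN28B IPs lay below the control IP by a wide margin, and in Ighv14-2 mouse 2 was close to the control. Ighv8-6 ran the other way, at 17.1, 33.4 and 28.2 FPKM in the inputs and at 47.6, 28.0 and 3.32 FPKM in the IPs. Its ratio was 2.78 and 0.837 in tet-LIN28B animals against 0.118 in the control, and the log2 difference was 3.34 ± 0.74 (SE) with a limma adjusted p of 0.074. Ighv8-9 was the 1 member higher in the tet-LIN28B IP relative to its input (log2 ratio 1.71 ± 0.22, adjusted p = 0.00711), from 1.18 to 5.98 and from 0.67 to 4.58 FPKM, and it was at 1.78 FPKM in the input and 1.61 FPKM in the IP of the control.

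Summed over genes, constant and V segments of the tet-LIN28B mice differed in a direction that depended on the locus. In the control the V sum had the higher ratio at every locus. In the heavy chain the summed V segments had higher IP/input ratios than the constant genes in tet-LIN28B mice, 0.477 and 0.503 against 0.125 and 0.173, and in the control, 1.5 against 1.11. In the kappa locus the V sum was at 0.0792 and 0.0781 and the constant gene at 0.0467 and 0.0756 in tet-LIN28B mice, close in mouse 2 alone, with 0.812 against 0.544 in the control. In the lambda locus the order turned with LIN28B, with V segments at 0.0167 and 0.0601 and constant genes at 0.153 and 0.216. It did not turn in the control, with 0.670 for V segments against 0.550. Without Iglc2, the lambda constant sum was at 0.0805 and 0.0883 against 0.541 in the control, close to the V segments in mouse 2. With Iglv1 left out as well, the lambda V sum was at 0.0314 and 0.141, above that constant sum in mouse 2 and below it in mouse 1. Lambda V segments amounted to 17.2% and 19.2% of the lambda constant sum in the tet-LIN28B inputs and to 1.88% and 5.32% in the IPs, against 23.4% and 28.5% in the control. Heavy chain V segments amounted to 16.6% and 19.7% of Ighm in the tet-LIN28B inputs and to 70.1% and 61.8% in the IPs, against 16.2% and 21.6% in the control. Without Ighv8-6, a step added after seeing the data, the shares were 15.4% and 17.7% in the tet-LIN28B inputs, 39.8% and 51.2% in the IPs and 14.8% and 21.5% in the control, and the IP/input ratio of the heavy chain V sum was 0.292 and 0.465 against 1.63 in the control.

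Between loci, the heavy chain sum had the higher ratio in every mouse. It was 0.171 and 0.224 against 1.16 in the control, while the light chain sum was 0.0942 and 0.137 and 0.588. All members together made up 0.745%, 0.895% and 1.25% of the summed FPKM of the inputs of tet-LIN28B mice 1 and 2 and the control, and 0.0842%, 0.15% and 1.01% of that of the IPs. These sums are values of 3 mice and were not tested.

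**Figure D2:**
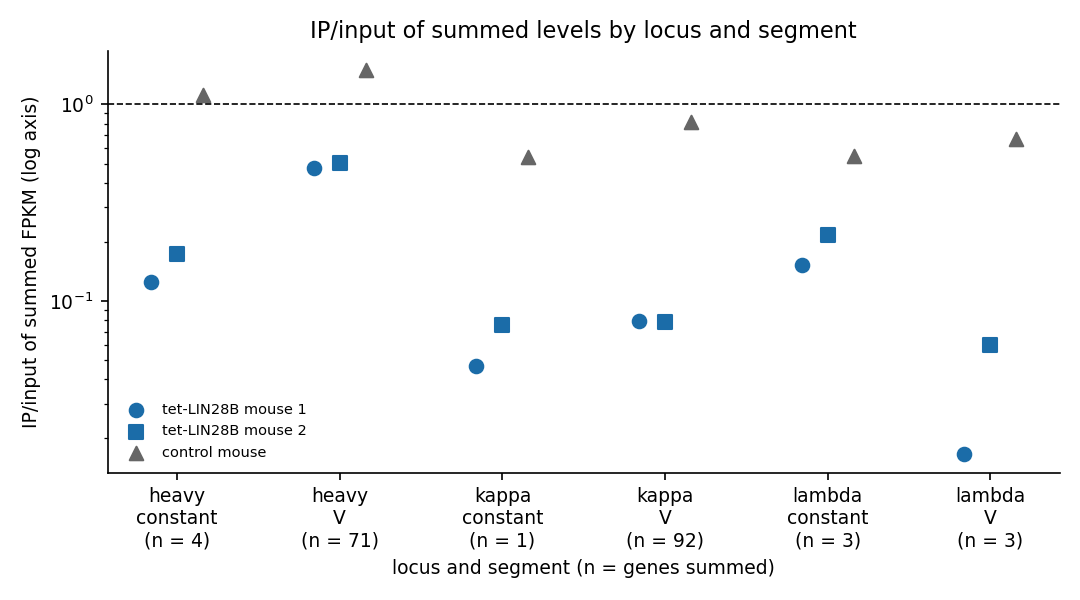
IP/input ratio of summed FPKM (log axis) by locus and segment, with circles and squares for tet-LIN28B mice 1 and 2 and triangles for the control, and the dashed line at a ratio of 1. In every class both tet-LIN28B mice lay below the control, from 0.477 and 0.503 against 1.5 for heavy chain V segments to 0.0167 and 0.0601 against 0.670 for lambda V segments.

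Tested gene by gene, 113 of 174 members were lower and 1 was higher in the tet-LIN28B IP relative to its input (limma, Benjamini-Hochberg adjusted p under 0.05 over 12576 genes), where 31.0% of all genes tested were lower and 13.9% higher. The count was 73 of 92 for kappa V segments, 30 of 71 for heavy chain V segments, 3 of 3 for lambda V segments and 7 of 8 for constant genes. These classes differed in level, with a median mean input of 7.76 FPKM for kappa V and 2.54 FPKM for heavy chain V members. The part of level in the counts by locus was not tested. The median log2 ratio was -1.59 for members and -0.32 for all genes tested. The input is the denominator of the ratio and also chose the members. With no filter on the input, 0 of 246 segments and 0 of 23198 genes were called. Of members at 10 FPKM or more in the mean input, 51 of 55 were lower and 0 higher, where 41.9% of genes tested at that level were lower and 20.2% higher.

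The comparison of tet-LIN28B mice with the control asked whether the low ratio went with the tagged protein. FPKM are scaled within each library, so a ratio is relative to the other transcripts of that IP. It gives no amount of RNA brought down. The IP/input ratio was lower in tet-LIN28B mice in 29 of 174 members and higher in 0 (limma adjusted p under 0.05), where 2.53% of all genes tested were lower and 0.382% higher. At an unadjusted limma p under 0.05, 107 members were lower and 4 higher, against 2925 lower and 805 higher of the 12576 genes tested. The 29 were 23 kappa V segments, Igkc, Iglv1, Iglc1, Iglc3, Ighm and 1 heavy chain V segment, Ighv1-59. Of the 29, 27 reached 10 FPKM in the mean input. The median difference was -1.84 for members and -0.39 for all genes tested and the members' median lay at -1.45 relative to that of all genes. Both tet-LIN28B ratios lay below the control ratio in 148 members, and in 60.0% of all genes tested. With mouse 2 alone it was 153 members and with mouse 1 alone 156, against 8307 and 8704 of the 12576 genes tested.

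These calls stand close to the threshold. Adjusted p-values of the 29 ran from 0.0429 to 0.0487, a further 34 members lay between 0.05 and 0.075, and the fit had 1 residual degree of freedom, so the spread of the single control was taken to equal that of the tet-LIN28B pair. No member and no gene was called with a pseudocount of 0.1, with no filter on the input, with no trend of the variance on level, or with no replicate block, whereas 38 of 55 members were lower and Ighv8-6 higher when only genes at 10 FPKM or more entered, where 17.8% of genes were lower and 4.73% higher.

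The largest differences among members that passed were those of Iglv1, Igkv17-121 and Igkv1-135. Iglv1 had a log2 difference of -4.79 ± 0.61 (SE, limma adjusted p = 0.0473), Igkv17-121 of -4.24 ± 0.54 (adjusted p = 0.0474) and Igkv1-135 of -4.18 ± 0.32 (adjusted p = 0.0429). On this scale Igkc was at -3.19 ± 0.39 (adjusted p = 0.046), Iglc1 at -3.15 ± 0.45 (adjusted p = 0.0487), Ighm at -3.06 ± 0.34 (adjusted p = 0.0429) and Iglc3 at -2.46 ± 0.28 (adjusted p = 0.0433). As a ratio of ratios without a pseudocount, the control exceeded the mean of the tet-LIN28B mice 26.8 times for Iglv1, 8.89 times for Igkc, 8.25 times for Ighm and 5.51 times for Iglc3. Ighd (-1.52 ± 0.30, adjusted p = 0.0666), Ighg2b (-1.64 ± 0.29, adjusted p = 0.0575), Igha (-1.75 ± 0.91, adjusted p = 0.274) and Iglc2 (0.15 ± 0.38, adjusted p = 0.814) did not pass.

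**Figure D3:**
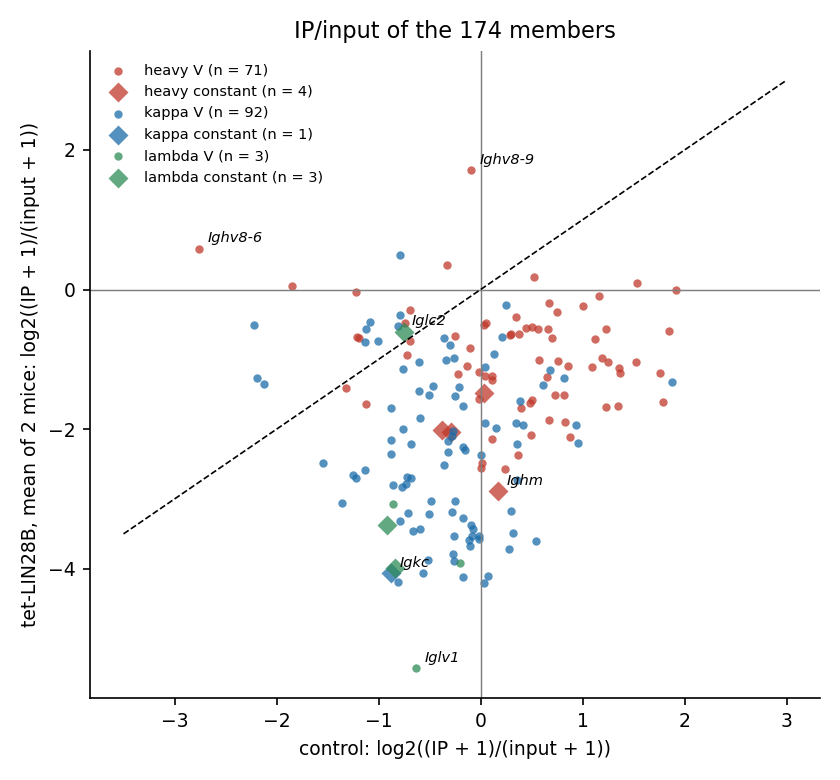
Log2((IP + 1)/(input + 1)) of the 174 members in the control (horizontal axis) and averaged over both tet-LIN28B mice (vertical axis), with small circles for V segments, diamonds for constant genes and colours for the loci. The dashed line marks equal values. Most members lie below it, with Iglv1 lowest at -5.43, and Ighv8-6 and Ighv8-9 lie above it.

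The control IP by itself differed between the loci at the median, with overlapping ranges and no test. Its median log2 ratio was 0.49 over heavy chain V members and -0.29 over kappa V members, with -0.63 over the lambda V members, against 0.04 over all genes tested. Single genes ran from -2.76 to 1.92 in heavy chain V and from -2.22 to 1.87 in kappa V members. The difference of tet-LIN28B from control ratios was -1.39 at the median for heavy chain V members and -2.0 for kappa V members. Heavy chain V members were also lower in level, with a median mean input of 2.54 FPKM against 7.76 FPKM for kappa V members. Over the 244 other tested genes with models over 300 and up to 400 nt the median difference was -0.52, near the -0.39 of all genes tested, and over the 152 members of that length it was -1.83. The level went along with the count of calls, since 5 of 32 members between 1 and 2 FPKM were lower in the tet-LIN28B IP relative to its input and 41 of 44 between 10 and 50 FPKM. Among all genes tested 31.0% were lower, and 41.9% when only genes at 10 FPKM or more in the mean input entered. Shares of all genes within the same ranges of level are not given here. A pseudocount of 1 FPKM draws the ratios of the weakest members towards 0.

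Light chain transcripts were also at lower levels in the tet-LIN28B inputs than in the control input, without any gene passing the test. Igkc was at 3541 ± 411 FPKM (SD, n = 2) with LIN28B and 5305 FPKM in the control input, Iglc3 at 2028 ± 264 and 3365 FPKM, and Iglv1 at 566 ± 128 and 1188 FPKM, while Ighm was at 1521 ± 183 and 1984 FPKM. In bulk samples, fewer cells of a type and less RNA per cell cannot be told apart. Summed over V segments, the tet-LIN28B inputs were at 643 and 956 FPKM and the control input at 1593 FPKM in the kappa locus, at 615 and 854 against 1509 FPKM in the lambda locus, and at 231 and 325 against 322 FPKM in the heavy chain locus. The light chain sums did not overlap between the genotypes, nor did those of the heavy chain constant genes (1540 and 1791 against 2122 FPKM) and of the whole heavy chain locus (1771 and 2116 against 2444 FPKM), while the heavy chain V sums did overlap. Both tet-LIN28B inputs lay below the control in 40.5% of all genes tested.

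By limma on log2(FPKM + 1), 0 of 12576 genes passed an adjusted p of 0.05 in either direction (0.0% of all genes called), and at an unadjusted p under 0.05 401 were lower and 279 higher. The inputs chose the members, 17 of which passed through the control input, so no count of calls over the members is given and their input differences are a description. Both tet-LIN28B inputs lay below the control input in 76 of 92 kappa V, 3 of 3 lambda V and 35 of 71 heavy chain V members. Over all members it was 120, and it was 126 with mouse 2 alone and 152 with mouse 1 alone. Of the 12576 genes tested it was 5092 with both mice, 7360 with mouse 2 alone and 6542 with mouse 1 alone. The median log2 difference was -0.82 for kappa V and -0.33 for heavy chain V members, against -0.04 for all genes tested. The lowest was Igkv3-2, chosen after its values were seen, with inputs of 2.69 and 6.88 FPKM against 39.2 FPKM in the control (log2 difference -2.90).

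Markers of small pre-B and immature B cells had, like the light chains, lower summed values in the tet-LIN28B inputs, with no gene passing the test. The 6 genes of small pre-B and immature B cells summed to 284 and 323 FPKM against 435 FPKM in the control input. Of these, 5 of 6 lay below the control in both mice, as did 40.5% of all genes tested. Il2ra, the IL-2 receptor alpha chain that marks small pre-B cells, was at 5.27, 5.5 and 12.8 FPKM, and Cd40, a receptor of maturing B cells, at 13.6, 15.6 and 33.7 FPKM in the inputs of tet-LIN28B mice 1 and 2 and the control (limma log2 differences -1.11 and -1.16, adjusted p = 0.593 and 0.561). The 6 genes of mature B cells, among them Ighd, summed to 980 and 1317 FPKM against 1616 FPKM, most of it from Cd74 (642 and 939 against 1159 FPKM) and H2-Aa (242 and 279 against 344 FPKM). Of these genes, 4 of 6 lay below the control in both mice, and Fcer2a (5.59 and 5.24 against 5.36 FPKM) and Cr2 (0.86 and 3.45 against 1.77 FPKM) did not. The pro-B and large pre-B list summed to 6054 and 7029 FPKM against 6672 FPKM, with the control between the tet-LIN28B mice. Their part in the light chain levels was not tested.

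**Figure D4:**
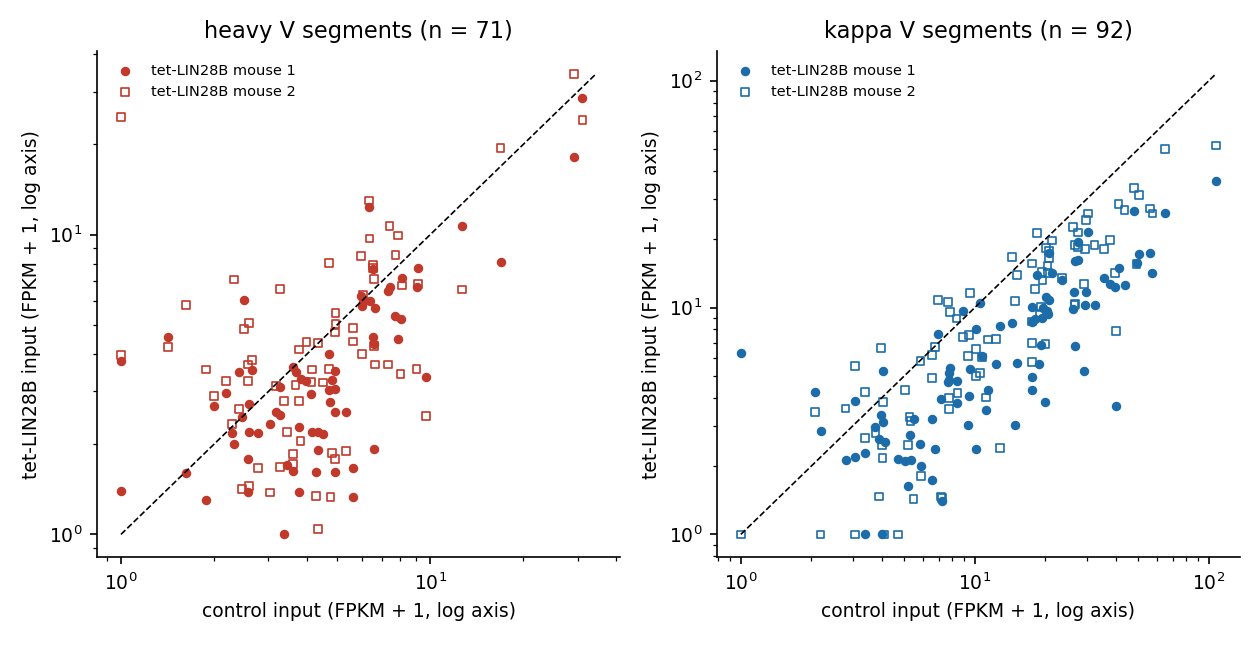
Input level of heavy chain (left, 71) and kappa (right, 92) V members in the control (horizontal axis) and in tet-LIN28B mice 1 (filled circles) and 2 (open squares), as FPKM + 1 on log axes. The dashed line marks equal levels. In 76 of 92 kappa and 35 of 71 heavy chain members both tet-LIN28B values were below the control, against 40.5% of all genes tested.

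Input levels of V segments ranked more alike between mice in the kappa locus than in the heavy chain locus. Over the 92 kappa V members, Spearman's rho of input levels was 0.852 between the tet-LIN28B mice and 0.832 and 0.877 between each of them and the control. Over the 71 heavy chain V members it was 0.497, 0.603 and 0.426. These are descriptions across genes that share libraries and, in part, sequence. Heavy chain V members were also closer to the threshold, with a median mean input of 2.54 FPKM against 7.76 FPKM for kappa V members. The part of level in these values was not tested. Igkv19-93 led the kappa inputs of all 3 mice with 5.48%, 5.31% and 6.66% of the summed kappa V level. Ighv5-4 led the heavy chain inputs of tet-LIN28B mouse 1 and the control with 12% and 9.34%, and Ighv8-6 that of mouse 2 with 10.3%. Between input and IP of the same mouse, rho was 0.915 for kappa and 0.716 for heavy chain members in the control. It was 0.363 and 0.389 for kappa and 0.463 and 0.346 for heavy chain members in the tet-LIN28B mice. In the IPs of these mice 62 and 38 kappa and 35 and 13 heavy chain V members were tied at 0. In the tet-LIN28B IPs Ighv8-6 alone made up 43.2% and 17.1% of the summed heavy chain V level, against a largest share of 10% for Ighv5-4 in the control IP.

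Near and far V segments of each locus were set side by side as a description, with no test. Kappa V members were split at the median distance from the J segments, 1326 kb. The nearer 46 had a median log2 input difference of -0.82 and the farther 46 of -0.83, and the differences in IP/input were -2.14 and -1.79. For heavy chain V members, split at 1335 kb, the input differences were -0.47 for the 36 nearer and -0.17 for the 35 farther segments. Many V segments share sequence, which limits how well single genes can be read. A median of 25.2% of the 50-base stretches of a kappa V member and 19.9% of those of a heavy chain V member occurred in another named segment, and in 14 kappa and 8 heavy chain members more than 50% did.

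By family, the sums followed the locus with exceptions. The Igkv8 family, 9 members, went from 70.1 to 0.37 and from 111 to 2.06 FPKM between input and IP of the tet-LIN28B mice and from 192 to 131 FPKM in the control. The Igkv4 family, 25 members, had ratios of 0.264 and 0.222 against 0.702 in the control. The Ighv1 family, 38 members, had ratios of 0.242 and 0.350 against 1.72. The Ighv8 family, 7 members including Ighv8-6 and Ighv8-9, had ratios of 1.57 and 0.819 against 0.692 in the control. This order rested on Ighv8-6, since without it the other 6 members had ratios of 0.500 and 0.788 against 1.55 in the control.

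Partners of the immunoglobulin chains went in opposite directions in the tet-LIN28B IPs. Vpreb1, which with Igll1 forms the surrogate light chain, was at 3112, 3364 and 3012 FPKM in the inputs and at 8667, 7919 and 2737 FPKM in the IPs of tet-LIN28B mice 1 and 2 and the control. Vpreb2, its near copy, was at 931, 950 and 713 FPKM and at 1750, 1547 and 636 FPKM. Igll1 (lambda5), which resembles a lambda constant region, was at 1396, 1749 and 1634 FPKM and at 299.8, 472 and 1284 FPKM. Vpreb1 and Vpreb2 thus stood above and Igll1 below the control in the IPs of both mice. Vpreb3, which binds nascent light chains in the endoplasmic reticulum, was at 4209, 5482 and 6092 FPKM in the inputs and at 212, 384 and 3929 FPKM in the IPs. Cd79a and Cd79b, the signalling chains of the receptor, had tet-LIN28B ratios of 0.174 and 0.465 and of 0.0806 and 0.0991, against 0.732 and 0.932 in the control. All 6 genes passed the test against the input in tet-LIN28B mice, Vpreb1 and Vpreb2 upwards (log2 ratio 1.36 ± 0.18 and 0.81 ± 0.16 (SE), limma adjusted p = 0.00697 and 0.0192). In that test 31.0% of all genes tested were lower and 13.9% higher. Against the control, Vpreb3 (-3.44 ± 0.34, adjusted p = 0.0429) and Cd79b (-3.37 ± 0.29, adjusted p = 0.0429) were lower, and Vpreb1 (1.5 ± 0.30, adjusted p = 0.0674), Vpreb2 (0.97 ± 0.28, adjusted p = 0.11), Igll1 (-1.70 ± 0.30, adjusted p = 0.0587) and Cd79a (-1.36 ± 0.63, adjusted p = 0.232) did not pass. Reads of Vpreb1 and Vpreb2 can be exchanged between these genes.

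**Figure D5:**
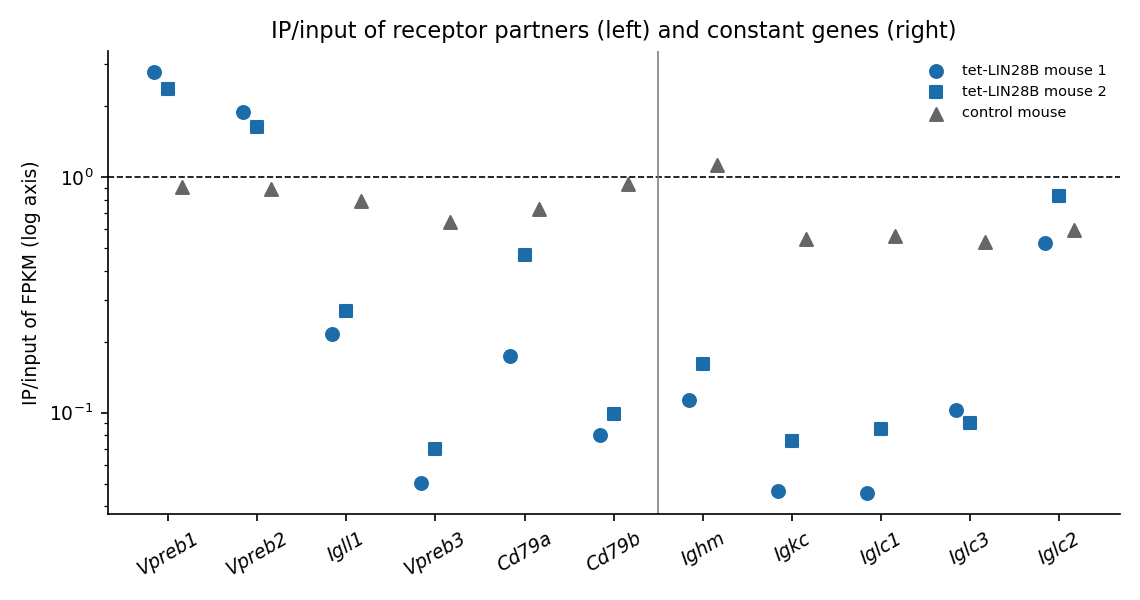
IP/input ratio of FPKM (log axis) of the surrogate light chain and CD79 genes (left of the grey line) and of 5 constant genes (right), with circles and squares for tet-LIN28B mice 1 and 2 and triangles for the control, and the dashed line at a ratio of 1. Vpreb1 and Vpreb2 lie above 1 in both tet-LIN28B mice, and Vpreb3, Cd79b, Ighm, Igkc, Iglc1 and Iglc3 lie far below their control values.

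Few other genes of the immunoglobulin pathway passed against the control, where 2.53% of all genes tested were lower and 0.382% higher. In the tet-LIN28B IP relative to its input, 31.0% of all genes tested were lower and 13.9% higher. The median difference of all genes tested from the control was -0.39. Of 13 genes of V(D)J recombination, 2 were higher and 4 lower in the IP of tet-LIN28B mice and 0 passed against the control, with a median difference of -0.36. Rag2, a subunit of the recombinase, had ratios of 0.306 and 0.280 against 0.787 in the control (limma log2 difference -1.24, adjusted p = 0.0913), and Dclre1c, the hairpin-opening nuclease Artemis, had the lowest difference (-1.68, adjusted p = 0.227). Xrcc5, the Ku80 end-binding protein, and Lig4, the ligase of end joining, had the highest (1.10 and 0.65, adjusted p = 0.142 and 0.311). Of 15 genes of immunoglobulin folding and assembly, 4 were higher and 4 lower in the tet-LIN28B IP and 1 was lower against the control, with a median difference of -0.12. That gene was Sdf2l1, a partner of the chaperone BiP in the endoplasmic reticulum (log2 difference -2.47 ± 0.29, adjusted p = 0.0435), followed by Ppib, a proline isomerase (-1.76, adjusted p = 0.109), while Canx, the lectin chaperone calnexin, and Hsp90b1, the chaperone GRP94, were highest (0.81 and 0.75, adjusted p = 0.135 and 0.245).

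The share of all genes tested that was higher in the tet-LIN28B IP relative to its input was 13.9%, and 31.0% were lower. Of 17 transcription factors and cofactors that act on immunoglobulin loci, 1 was higher and 3 were lower in the tet-LIN28B IP. Against the control 0 of them passed, where 2.53% of all genes tested were lower and 0.382% higher. Their median difference was -0.25, against -0.39 for all genes tested. The lowest were Pou2f1, which encodes the octamer-binding Oct-1 (log2 difference -2.14, limma adjusted p = 0.0739), and Pou2af1, the octamer coactivator OBF-1 (-1.70, adjusted p = 0.067), and the highest were Yy1 (0.25, adjusted p = 0.595), a factor with a role in folding of the Igh locus, and Irf4 (0.07, adjusted p = 0.903), which promotes light chain rearrangement. Of the 6 mature B cell genes, 5 were lower in the tet-LIN28B IP and 1, Cd74, was lower against the control (-3.79, adjusted p = 0.0474), the invariant chain of MHC class II.

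The marker lists were read in the same comparison of IP/input ratios against the control, where 2.53% of all genes tested were lower and 0.382% higher. Among 12 pro-B and large pre-B genes 0 passed, with Igll1 among the low ones (log2 difference -1.70, limma adjusted p = 0.0587) and Vpreb1 and Dntt, the terminal transferase, highest (1.5 and 0.42, adjusted p = 0.0674 and 0.355). Among 6 small pre-B and immature genes 0 passed, with Ms4a1 (CD20) and Spib lowest (-1.42 and -1.21, adjusted p = 0.0808 and 0.0977) and Il2ra and Cd40 highest (0.20 and -0.51, adjusted p = 0.711 and 0.336). In the mature list Cd22, an inhibitory coreceptor, followed Cd74 (-2.15, adjusted p = 0.0674), and Cr2 and Fcer2a were highest (-0.41 and -0.93, adjusted p = 0.74 and 0.249). None of the 4 T cell, 7 myeloid, 3 plasma cell or class-switch, 2 erythroid and 1 stromal genes tested passed, and the lists share the 3 mice and their control with the members. Their extremes were Cd3e and Cd3d (-1.20 and 1.55, adjusted p = 0.251 and 0.0831), Elane and S100a9 (-1.73 and 0.26, adjusted p = 0.126 and 0.578), Xbp1 and Jchain (-1.53 and 0.50, adjusted p = 0.0641 and 0.477) and Hba-a1 and Hbb-bs (-3.45 and 0.32, adjusted p = 0.0502 and 0.837), with Pecam1 at 0.06 (adjusted p = 0.916).

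LIN28 proteins are known to bind GGAGA in let-7 precursors and in mRNAs. The letters GGAGA, searched on the transcript strand of the longest GENCODE M21 model, occurred in 82 of 92 kappa V, 17 of 71 heavy chain V, 2 of 3 lambda V and 7 of 8 constant members, against 55.7% of the 244 other tested genes with models over 300 and up to 400 nt and 91.6% of all genes tested. Igkc held none and Ighm 1. The median log2 difference from the control was -2.04 in kappa V members with GGAGA and -1.17 in the 10 without it, and -1.39 and -1.38 in heavy chain V members with and without it. The kappa V groups also differed in median mean input, 8.02 FPKM with it and 5.71 FPKM without. Over all members the median difference was -1.28 between 2 and 5 FPKM and -1.95 between 5 and 10 FPKM. A part of the motif in these differences was not tested. Germline models leave out the joined J and constant exons of a rearranged transcript, so this describes the segments alone.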

How the data were processed

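Poly-A RNA of the inputs and anti-FLAG IPs was made into cDNA with SMART-Seq v4 and into libraries with Nextera XT. Per the labels and the study's methods, alignment was to mm10 (STAR 2.7.1) and quantification by RSEM 1.28. The authors deposited FPKM for 54752 genes. Which annotation release they used is not given in these sources, and neither kit marks strand. RSEM shares reads among similar genes, and reads that cross a V(D)J junction may not align to germline segments. Depth cannot be read from FPKM, so it is unknown here, and values have no counting interval. Sample titles, which match the column names, set fraction, genotype and mouse. Where a description's last line gave the opposite fraction, the title was followed. The 6 libraries were set against each other in 15 pairs, and none was a copy of another. The titles call the tet-LIN28B samples biological replicates.

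Segments were matched by name, and the 12576 genes at 1 FPKM or more in the mean input were tested. Log2((IP + 1)/(input + 1)) of each mouse, with a pseudocount of 1 FPKM, was fitted with limma 3.58.1 (R 4.3.3), genotype as the factor and a trend on mean level, and the tet-LIN28B mean was compared with 0 and with the control. Fold changes on this scale understate those of low genes. Inputs were compared on log2(FPKM + 1). P-values were adjusted over all genes tested (Benjamini-Hochberg, threshold 0.05). The fits had 1 residual degree of freedom. The study's own filter of 50 FPKM in the 4 tet-LIN28B libraries would leave 5 members and served as an alternative. Input and IP came from the same animal, and the ratio within each mouse serves as the replicate block. Between the tet-LIN28B mice, input and IP differences correlated at 0.132 across genes.

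Members and gene lists were chosen with earlier results of these data known. Named genes were every constant gene, the 5 highest V members of each locus, the 3 members furthest above and below the control among those passing, the 2 on each side of the threshold, the surrogate light chain and CD79 genes, and the 2 highest and lowest of the other lists. Ighv8-9, Ighv1-59, Igkv3-2, Ighd4-1, Ighd1-1 and the genes at 0 or under 1 FPKM named as markers are not covered by it, and their values were known when they were chosen. Coordinates, gene models and promoter windows are those of GENCODE M21 on GRCm38, the build mm10 stands for, and the first 40 bases of the models of all 174 members equalled the genome sequence. Of the named segments, 391 of 395 had 1 model.

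On simulated data for 12576 genes with 200 changed, log2 changes of 1 and 2 were recovered in 84% and 100% for IP against input, 24% and 99% for tet-LIN28B against control, and 87% and 100% for the inputs, where 16 unchanged genes were called. The spread of each gene was drawn at the fitted trend on level, with no scatter of single genes around it. In the real data genes scatter around that trend, and no gene passed in the real inputs. These shares can therefore be too high and do not measure recovery in the real data. Alternatives changed the pseudocount, the filter, the scaling, the trend, the centring and the replicate block, and left out each tet-LIN28B mouse. Western blots and flow cytometry were not analysed here, and some genes that the naming rule selects are not reported here.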

Additional observations from a re-analysis of the deposited data

Results flagged for a closer look

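By the limma test of the difference itself, 29 members had a lower IP/input ratio with LIN28B than without. Of the genes named in the report, the log2 differences were -3.06 for Ighm, -3.19 for Igkc, -2.46 for Iglc3, -3.15 for Iglc1, -4.18 for Igkv1-135, -3.45 for Igkv17-127, -3.38 for Igkv3-7, -4.79 for Iglv1 and -4.24 for Igkv17-121. Among receptor partners they were -3.44 for Vpreb3 and -3.37 for Cd79b. In each of them both tet-LIN28B mice lay below the single control, and all of these calls were lost with a pseudocount of 0.1, with no trend and with no replicate block. The summed heavy chain constant genes had an IP/input ratio of 1.11 in the control and below 1 in both tet-LIN28B mice, and the summed heavy chain V segments one of 1.5 in the control and below 1 in both tet-LIN28B mice. For these sums the difference was not tested. No group held 4 samples, so no single library was tested as standing apart.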

How the results depend on the processing

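The count of members with a lower IP/input ratio against the control depended on the settings. From 29, it went to 0 with a pseudocount of 0.1, with no filter (246 segments), with no trend or with no replicate block, to 18 with median centring, to 49 with scaling to TPM, to 38 of 55 at a mean input of at least 10 FPKM, where 1 was higher, and to 4 of 5 under the study's filter of 50 FPKM. The higher filters test fewer members, and 26 of the 29 were called again at 10 FPKM. The cause of the other changes was not tested. Members lower in the tet-LIN28B IP relative to its input numbered 113 and stayed between 92 (no replicate block) and 115 except for 0 with no filter, 51 of 55 at 10 FPKM and 5 of 5 at 50 FPKM. The 1 higher member became 0 with no filter and at 10 and 50 FPKM, and 2 with median centring. In the inputs 0 of all genes tested passed, against 13 higher and 5 lower at 10 FPKM and 4 higher in TPM, none of them a member.

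The IP/input ratio of the summed heavy chain constant genes in tet-LIN28B mice, 0.149, was 0.28 without Ighm. That of heavy chain V segments, 0.490, was 0.528 in TPM, 0.453 without Ighv5-4 and 0.379 without Ighv8-6, that of kappa V segments, 0.0786, was 0.0846 in TPM, that of lambda constant genes, 0.185, was 0.274 without Iglc3, and that of lambda V segments, 0.0384, was 0.0863 without Iglv1. With either tet-LIN28B mouse left out no residual degree of freedom remained, so only values can be given. The median log2 difference of members from the control was then -1.78 without mouse 1 and -1.76 without mouse 2, against -1.84 with both. The counts of members below the control, added after seeing the data, required both tet-LIN28B mice. Leaving out either mouse could therefore only keep or raise them, and they changed by under 1.5 times. This change is no check of how firm the counts are.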
